A study of Mus musculus with 3 samples.

Results

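The genes examined were the 10 members Hdac1 to Hdac9 and Sirt1, which encode enzymes that take acetyl groups off lysines. They were chosen by gene name in the GENCODE M21 annotation, where each name matched 1 of 55536 genes, and they hold 94 annotated transcripts. Messenger RNA was measured in regulatory T cells (Tregs) that had experienced inflammation, from 1 adult male sample of the strain Foxp3CreERT2 x Rosa26YFP at 6 months of age. In this strain a Cre recombinase activated by tamoxifen is driven by Foxp3, the gene that defines Tregs, and YFP is a fluorescent reporter at Rosa26. The labels give no treatment and do not say how the inflammation was produced. The labels name 1 biological replicate and 3 technical replicates, called library 1, 2 and 3 by their technical replicate numbers, so no condition could be compared. Error values are spreads between these technical libraries, and p-values measure only that spread or counting noise, never the spread between animals.

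Histone deacetylases (HDACs) of classes I and II use zinc, and sirtuins such as SIRT1 use NAD. Class I enzymes are mostly nuclear and work inside co-repressor complexes. Class IIa enzymes shuttle between nucleus and cytoplasm, bind MEF2 transcription factors and are held in the cytoplasm by 14-3-3 proteins after phosphorylation. In Tregs, several of these enzymes are known to act on Foxp3 itself, whose acetylation affects its stability.

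The libraries held 11829501, 14136139 and 10667765 estimated counts on genes. All 6 Treg markers and all 5 CD4 T cell markers that were examined were at 1 TPM (a level scaled for transcript length and to a common total) or more in every library, with Foxp3 at 18.0, 14.2 and 16.0 TPM. Markers of other cells were uneven. The summed level of 6 B cell markers was 21.1, 46.6 and 58.7 TPM in libraries 1, 2 and 3, that of 4 plasma cell markers 85.8, 363 and 458, and that of 5 erythroid markers 4.83, 51.2 and 286. The sum of 5 myeloid markers was 9.79, 52.9 and 23.1 TPM, that of 4 NK cell markers 37.6 and 12.6 in libraries 2 and 3 and lower in library 1, and that of 2 CD8 T cell markers 5.88, 12.4 and 15.2. Library 1 was lowest in all 6 of these sums, but not in every marker. Among NK cell markers, Ncr1 (0.47, 0.26 and 0.17 TPM) was highest in library 1, and Prf1 (7.49, 25.2 and 6.73) was lowest in library 3. The NK marker Klrb1c, the myeloid marker Itgam and the erythroid marker Alas2 were lowest in library 2. In library 1, Cd79b alone gave 18.9 of the 21.1 TPM of the B cell sum. The plasma cell sum was mostly Igkc, at 45.3, 308 and 405 TPM, while Xbp1 (38.9, 35.8 and 30.3) and Sdc1 (0.58, 0.24 and 0.11) were highest in library 1. Hba-a2, an erythroid marker, was at 0 there, and no other marker of these lists was at 0 in any library.

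Of the 10 members, 9 were at 1 TPM or more in all 3 libraries, and Hdac9 was not. Among all 22028 protein-coding genes the share that met this limit was 46.0%. Hdac1 stood far above the rest at 198 ± 13.8 TPM (SD, n = 3). A middle group of Hdac3, Hdac4 and Hdac7 lay between 34.5 and 41.0 TPM on average. The other detected members, Hdac8, Hdac2, Hdac5, Sirt1 and Hdac6, lay between 5.33 and 10.5 TPM. Hdac1 alone took 56.6% ± 1.26 of the summed TPM of the 10 genes, and the 4 class I genes took 74.1% ± 2.47.

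**Figure D1:**
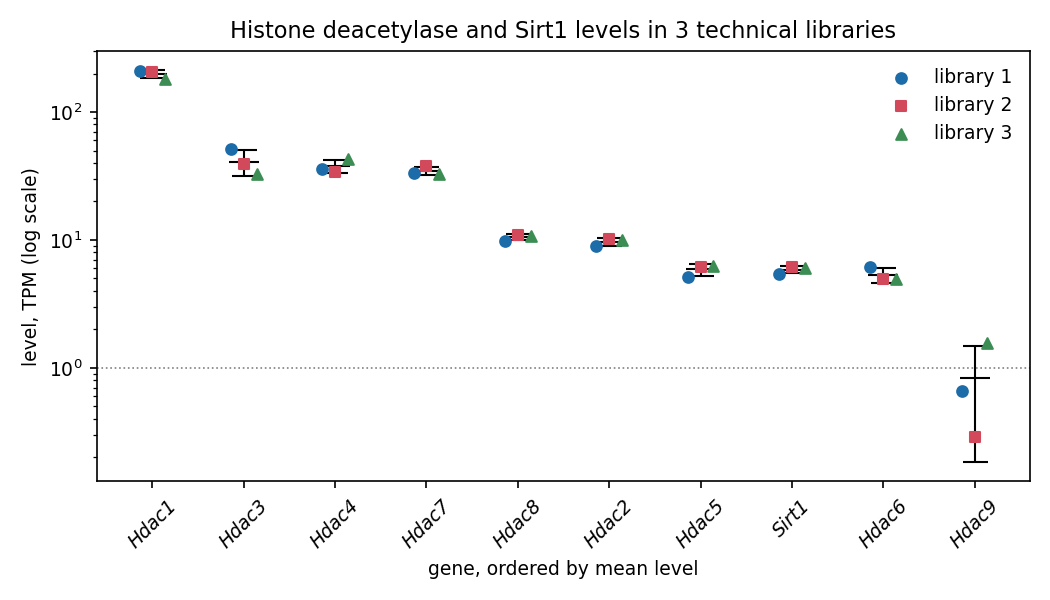
Level of each gene in TPM (log axis) in libraries 1, 2 and 3, with the mean (wide tick) and SD (error bar) over the 3 technical libraries; the dotted line is 1 TPM. Hdac1 is highest at 182 to 208 TPM, and only Hdac9 falls below 1 TPM, in libraries 1 and 2.

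Among class I genes, Hdac1 (ENSMUSG00000028800.15, chr4:129516104-129542713, minus strand) encodes a catalytic subunit of the SIN3, NuRD and CoREST complexes. Its level was 208, 204 and 182 TPM in libraries 1, 2 and 3. Libraries 1 and 2 were close and library 3 was the lowest. Hdac1 ranked at percentile 95.3 among the genes that reached 1 TPM in any library. Hdac2 (ENSMUSG00000019777.16, chr10:36974544-37001889, plus strand), the close relative that shares these complexes, was at 8.93, 10.1 and 9.95 TPM. Its mean of 9.65 ± 0.623 TPM put it at percentile 52.3.

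Hdac3 (ENSMUSG00000024454.16, chr18:37935844-37955016, minus strand), the catalytic subunit of the NCoR/SMRT complex, was at 51.1, 39.3 and 32.5 TPM. Library 1 was the highest and library 3 the lowest, and the mean was 41.0 ± 9.37 TPM. Hdac8 (ENSMUSG00000067567.12, chrX:102284639-102505359, minus strand), a class I enzyme that acts outside these complexes and deacetylates the cohesin subunit SMC3, was at 9.80, 10.9 and 10.7 TPM. Its SD of 0.597 TPM was 5.70% of its mean, the smallest such share of the 10 genes.

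The class IIa genes differed widely in level. Hdac4 (ENSMUSG00000026313.16, chr1:91928779-92195699, minus strand), a repressor of MEF2 targets, was at 36.1, 34.2 and 42.7 TPM, with library 3 the highest. Hdac7 (ENSMUSG00000022475.19, chr15:97792664-97844502, minus strand), known from thymocytes and reported to associate with Foxp3, was at 33.2, 37.5 and 32.9 TPM, with library 2 the highest. Hdac5 (ENSMUSG00000008855.17, chr11:102194432-102230166, minus strand), related to Hdac4, was at 5.17, 6.15 and 6.28 TPM. These 3 genes ranked at percentiles 77.7, 76.0 and 43.5.

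Hdac9 (ENSMUSG00000004698.10, chr12:34047580-34917095, minus strand), a class IIa gene whose loss has been studied in Tregs, rested on 25, 15 and 36 estimated counts. Its level was 0.66, 0.29 and 1.56 TPM, or 0.837 ± 0.653 on average. In CPM, its counts scaled by the library total without length, it was at 2.11 in library 1 (95% Wilson interval 1.43 to 3.12), 1.06 in library 2 (0.643 to 1.75) and 3.37 in library 3 (2.44 to 4.67). The intervals of libraries 2 and 3 did not overlap each other, and each overlapped that of library 1. All 3 values were above the 0.254, 0.212 and 0.281 CPM that a count of 0 would allow. These intervals and floors cover counting error only, since PCR copies of a molecule are counted as separate reads.

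Hdac6 (ENSMUSG00000031161.15, chrX:7930120-7947889, minus strand), the class IIb member and a cytoplasmic deacetylase of tubulin, was at 6.14, 4.94 and 4.91 TPM. Libraries 2 and 3 were alike and library 1 was higher. Sirt1 (ENSMUSG00000020063.16, chr10:63319005-63381704, minus strand), the NAD-dependent member, was at 5.42, 6.17 and 6.00 TPM. Its mean of 5.86 ± 0.393 TPM was close to that of Hdac5 at 5.87 ± 0.607.

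The order of mean levels was Hdac1, Hdac3, Hdac4, Hdac7, Hdac8, Hdac2, Hdac5, Sirt1, Hdac6 and Hdac9. Of the 9 pairs of neighbours in that order, 5 had the same order in every library. On the log2(TPM + 0.1) scale, which understates differences of low genes, Hdac1 exceeded Hdac3 by 2.29 ± 0.24, Hdac7 exceeded Hdac8 by 1.71 ± 0.09 and Hdac2 exceeded Hdac5 by 0.71 ± 0.06. Hdac8 exceeded Hdac2 by 0.12 ± 0.01 in all 3 libraries, a small difference that CPM did not keep (0.02, with Hdac2 higher in libraries 2 and 3). Hdac6 exceeded Hdac9 by 2.77 ± 1.07. By the deposited posterior mean TPM, another estimate of the same levels, Hdac2 exceeded Hdac5 by only 0.16. A two-sided exact permutation test that flips the signs gave p = 0.25 for each of these 5 pairs (adjusted p = 0.450 over the 9 pairs), the smallest p that 3 libraries allow, so no pair could pass 0.05.

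The other 4 pairs of neighbours changed order between libraries. Hdac3 minus Hdac4 was 0.10 ± 0.45 log2 units, Hdac4 minus Hdac7 was 0.12 ± 0.26 and Sirt1 minus Hdac6 was 0.14 ± 0.28. Hdac5 and Sirt1 differed by -0.07 log2 units in library 1 and 0.06 in library 3. These neighbours did not differ beyond the spread between libraries. On the main whole-gene TPM, neither the middle group of 3 genes nor Hdac5, Sirt1 and Hdac6 had a fixed order. By posterior mean TPM, Hdac5 was above Hdac6 and Hdac6 above Sirt1 in every library. Hdac5 then exceeded Sirt1 by 0.56 log2 units, and Sirt1 minus Hdac6 was -0.21 (exact permutation p = 0.25 for each). On coding transcripts alone, a count chosen after seeing the data, all 4 pairs kept 1 order in every library. There Hdac3 exceeded Hdac4 by 0.45 log2 units, Hdac4 exceeded Hdac7 by 0.54, Hdac5 exceeded Sirt1 by 0.44, and Sirt1 minus Hdac6 was -1.92 (exact permutation p = 0.25 for each).

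The differences between libraries were set against counting noise by a Poisson test of homogeneity on the estimated counts. Its chi-square is given per degree of freedom, a value that averages 1 under counting noise alone. Of the 10 genes, 5 passed at an adjusted p under 0.05. Over all 13970 genes tested 45.7% passed, so the count of members is near the background. The median chi-square per degree of freedom was 4.41 for the members and 3.28 for all genes. The test treats reads as independent and describes these libraries only.

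Hdac1 and Hdac3 gave the highest values among the members. Hdac1 had 3458, 4217 and 2781 counts, a chi-square per degree of freedom of 31.3 (Benjamini-Hochberg adjusted p = 4.63e-13) and a 1.21-fold span between the highest and the lowest library after scaling. The median span over all tested genes was 1.26-fold. Hdac3 had 811, 820 and 527 counts, a value of 21.2 (adjusted p = 7.32e-09) and a 1.44-fold span, with library 1 the highest. Both were lowest in library 3, where the erythroid and B cell marker sums were highest, as were the Treg and CD4 T cell marker sums. The part of those markers in the result was not tested. Without library 3, Hdac1 no longer passed (adjusted p = 0.248), whereas Hdac3 passed whichever library was left out.

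The other 3 that passed were class IIa genes. Hdac4, with 1763, 1947 and 1748 counts, gave 6.68 (adjusted p = 0.00433) with a 1.13-fold span and was highest in library 3. Hdac7, with 735, 1010 and 736 counts, gave 5.45 (adjusted p = 0.0124) with a 1.17-fold span and was highest in library 2. Hdac9 gave 7.06 (adjusted p = 0.0031) with the widest span of the 10, 3.01-fold, and was highest in library 3. The B cell, plasma cell, CD8 T cell and erythroid marker sums were also highest there. So were the sums of the Treg markers (1903, 1710.5 and 2018 TPM) and of the CD4 T cell markers (6972, 6921 and 7083 TPM). The part of any of these markers in the result was not tested. Each of these 3 calls was lost when either of 2 libraries was left out. The adjusted p was 0.176 and 0.174 for Hdac4 without library 2 or 3, 0.190 and 0.330 for Hdac7 without library 1 or 2, and 0.202 and 0.122 for Hdac9 without library 2 or 3.

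By scaled counts, the basis of the test, 1 of the 5 members that passed (Hdac3) was highest in library 1, against 30.7% of all 6388 genes that passed. Hdac1 and Hdac7 were highest in library 2, against 33.9% of those genes, although by TPM Hdac1 was highest in library 1. Likewise by scaled counts, Hdac4 and Hdac9 were highest in library 3, against 35.4%. The other 5 genes did not pass. Hdac8 had 139, 164 and 122 counts and a value of 0.186 (adjusted p = 0.869), Sirt1 154, 201 and 153 counts and 0.496 (adjusted p = 0.684), and Hdac2 124, 165 and 130 counts and 0.648 (adjusted p = 0.608). Hdac5 gave 0.844 (adjusted p = 0.523) on 60, 86 and 68 counts, and Hdac6 3.37 (adjusted p = 0.0702) on 224, 217 and 164. In shape over the 3 libraries, Hdac2, Hdac8 and Sirt1 were most alike, each 0.02 log2 units from its nearest member. This is the distance between centred log2(TPM + 0.1) values, and Hdac9 was 1.25 from its nearest, Hdac4. The homogeneity values of Hdac2, Hdac8 and Sirt1 were under the average of 1 for counting noise. No shared pattern can thus be read from their likeness.

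**Figure D2:**
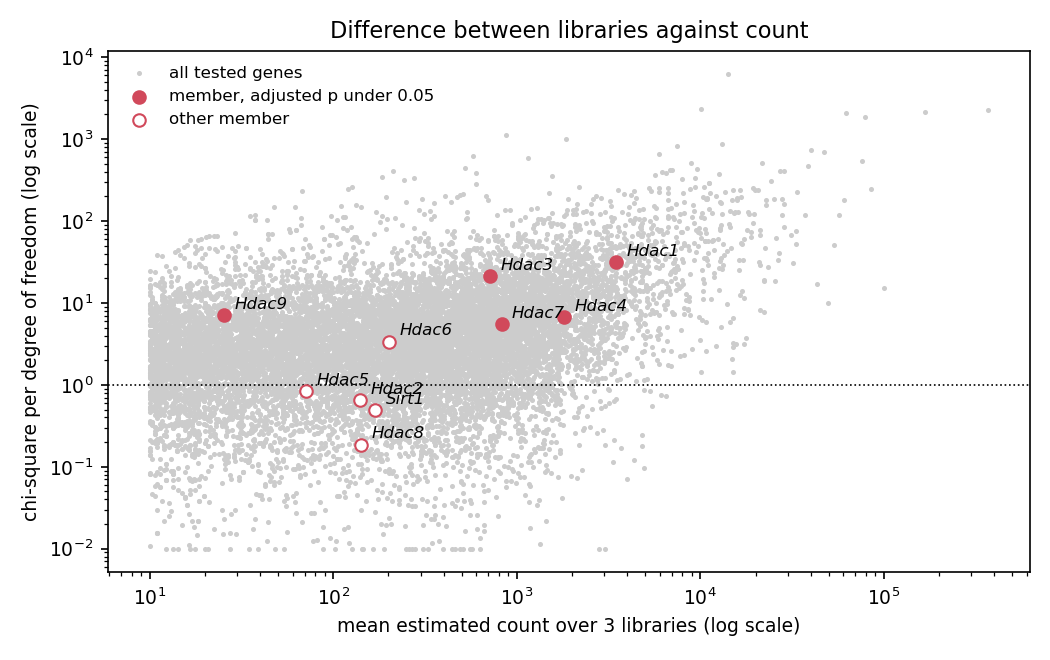
Chi-square per degree of freedom between the 3 libraries against the mean estimated count, both on log axes, for all 13970 tested genes (grey, values under 0.01 drawn at 0.01) and the 10 members (filled where the adjusted p was under 0.05); the dotted line is 1. Hdac1 and Hdac3 lie highest among the members, at 31.3 and 21.2, and Hdac8 lowest at 0.186.

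The level of Hdac1 depends on how reads were shared with a copy of the gene. Gm10093 (chr17:78491582-78493025, plus strand) is a processed pseudogene of Hdac1, a gene copy made from its spliced RNA. It was assigned 577, 613 and 527 counts, or 45.7, 40.2 and 45.5 TPM. Of the counts on both genes, Hdac1 took 85.7%, 87.3% and 84.1%. The deposited posterior SD, the uncertainty of how reads were shared out, was 45.7, 46.2 and 40.1 counts for Hdac1 and 47.1, 47.3 and 40.5 for Gm10093. For Hdac4 it was between 3.65 and 8.65 counts, and for the other 8 members it was 0. How many of the reads came from the pseudogene is uncertain. The sum of both genes still differed between libraries, with a chi-square per degree of freedom of 24.5 (unadjusted p = 2.24e-11), while Gm10093 alone did not pass (1.62, adjusted p = 0.284).

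A separate set of whole-number counts on the older GENCODE M4 annotation gave another order. It held 261, 281 and 214 counts for Hdac1, or 7.23% of the estimated counts over the 3 libraries. The median gene of the 11374 compared held 40.7%, and 8.17% of them lay below Hdac1. Hdac4 held 16.6% and Hdac9 15.8%, with 1, 2 and 9 counts. The remaining members held from 37.6% (Sirt1) to 79.9% (Hdac5). By CPM in this set, Hdac1 came after Hdac3, Hdac7 and Hdac4, and Hdac1 minus Hdac3 was -0.53 log2 units. Gm10093 had 7, 6 and 3 counts there. Of the 9 members tested in this set, 1 passed, Hdac3, with 447, 394 and 269 counts. Over all 9991 genes tested in this set 21.6% passed. The cause of the low counts of Hdac1 in this set was not tested.

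**Figure D3:**
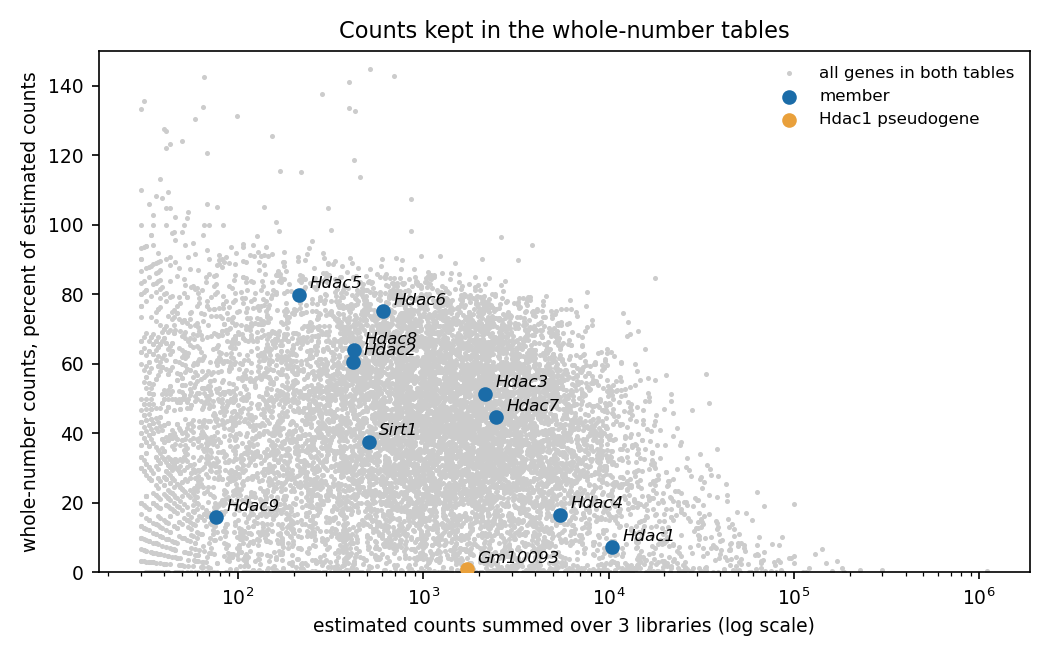
Whole-number counts on the older annotation as a percent of the estimated counts, against the estimated counts summed over the 3 libraries (log axis), for 11374 genes in both tables (grey; 31 genes above 150% are not drawn), the 10 members (blue) and the pseudogene Gm10093 (orange). Hdac1 at 7.23%, Hdac9 at 15.8%, Hdac4 at 16.6% and Sirt1 at 37.6% lie under the median of 40.7%, as does Gm10093 at 0.932%, and Hdac5 is highest at 79.9%.

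The gene levels sum over transcripts that do not all encode the enzyme. Of the 94 annotated transcripts 43 are protein-coding, and 64 had counts in at least 1 library. In 7 genes the transcript with the largest mean share of TPM was protein-coding, and in Hdac5, Hdac7 and Sirt1 it was not. The protein-coding share of TPM was 100.0% for Hdac6, 89.7% ± 2.48 for Hdac1, 88.9% for Hdac9 (73.1% to 100.0% over the libraries) and 81.2% ± 5.96 for Hdac3. It was 63.6% ± 4.02 for Hdac4, 60.5% ± 9.33 for Hdac8, 56.9% ± 1.84 for Hdac2 and 47.4% ± 2.40 for Hdac7. Hdac5 at 31.7% ± 5.43 and Sirt1 at 23.0% ± 4.84 were the lowest. By share of counts, Hdac5 was at 56.1% and Sirt1 at 26.3%, and 8 genes were led by a coding transcript, Hdac5 among them. The assignment of reads to transcripts is a model estimate, and no counts of reads over junctions were used here.

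**Figure D4:**
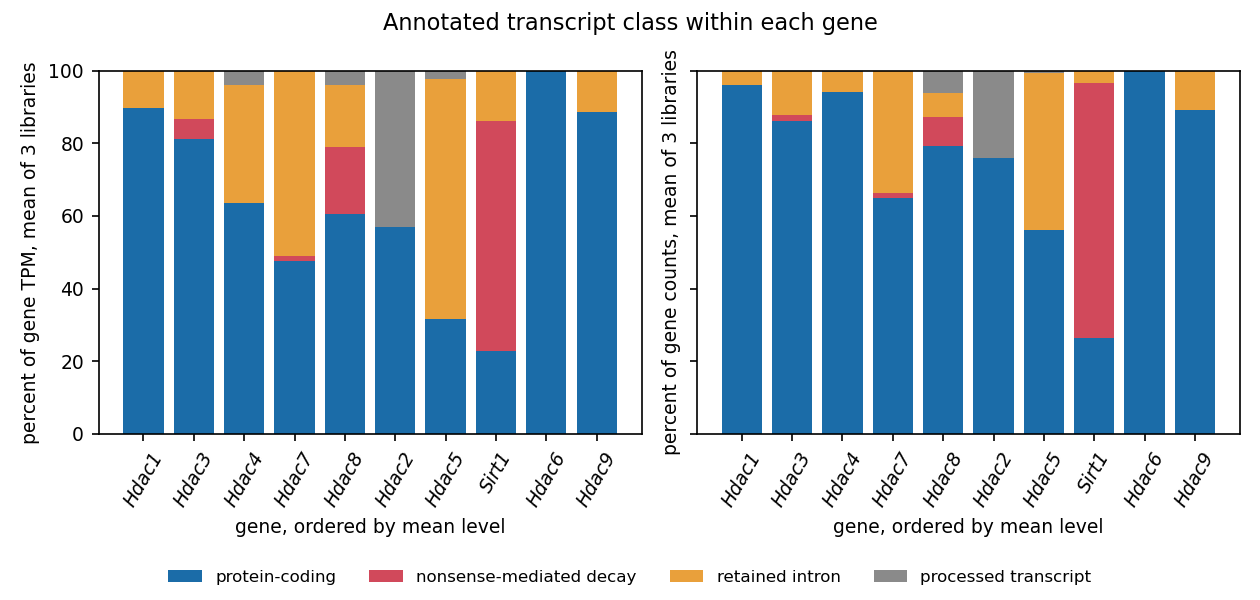
Mean share over 3 libraries of each annotated transcript class in the 10 genes, by TPM (left) and by estimated counts (right), in percent. The protein-coding share of Sirt1 is the lowest in both panels, at 23.0% and 26.3%, while that of Hdac4 is 63.6% by TPM and 94.1% by counts.

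Sirt1 was led by Sirt1-205, annotated as a target of nonsense-mediated decay, the pathway that destroys RNAs with an early stop codon. It took 68.8%, 60.9% and 59.8% of Sirt1 TPM in libraries 1, 2 and 3, at 3.73, 3.76 and 3.58 TPM. Its estimated counts were 115.0, 140.0 and 101.0, with posterior SDs of 17.8, 24.8 and 24.2. Compared with Sirt1-201, which encodes a protein of 737 codons, it holds an additional exon of 125 bases (chr10:63326660-63326784, GRCm38, minus strand), a length that leaves a remainder of 2 when divided by 3. This exon is in no other annotated Sirt1 transcript. Sirt1-205 also starts inside the exon that is the second of Sirt1-201 and lacks the first. The 2 transcripts part at the end of the exon before it, shown here since the stop codon lies right behind the border. The last 15 shared bases (chr10:63331745-63331759) are in lower case, and capitals mark the start of the additional exon up to and including its stop codon TGA.
Sirt1-205: ttcaagtttgcaaagAAGAAACAGCATTGA
Sirt1-201: ttcaagtttgcaaaggaaatatatcccgga

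The coding transcripts of Sirt1 together reached 1.13, 1.21 and 1.71 TPM. Sirt1-207, which lacks an exon of 552 bases of Sirt1-201 (chr10:63321749-63322300) and encodes 553 codons, was at 0.86, 0.00 and 1.66 TPM. Sirt1-201, which falls outside the limit of 10% of the gene's TPM used for naming transcripts and was picked after its values were seen, was at 0.27, 1.21 and 0.05 TPM. Where 1 of these transcripts was low the other was high, and the posterior SDs of Sirt1-201 were 16.2, 25.6 and 20.4 counts against estimates of 9.47, 50.9 and 1.47. The split between them was thus not resolved at this depth, while Sirt1-205 led in each library. By the authors' posterior mean estimate Sirt1-205 took 51.9%, 49.3% and 38.5%, lower but still the largest share in each library. The coding share of Sirt1 was then 34.7%.

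**Figure D5:**
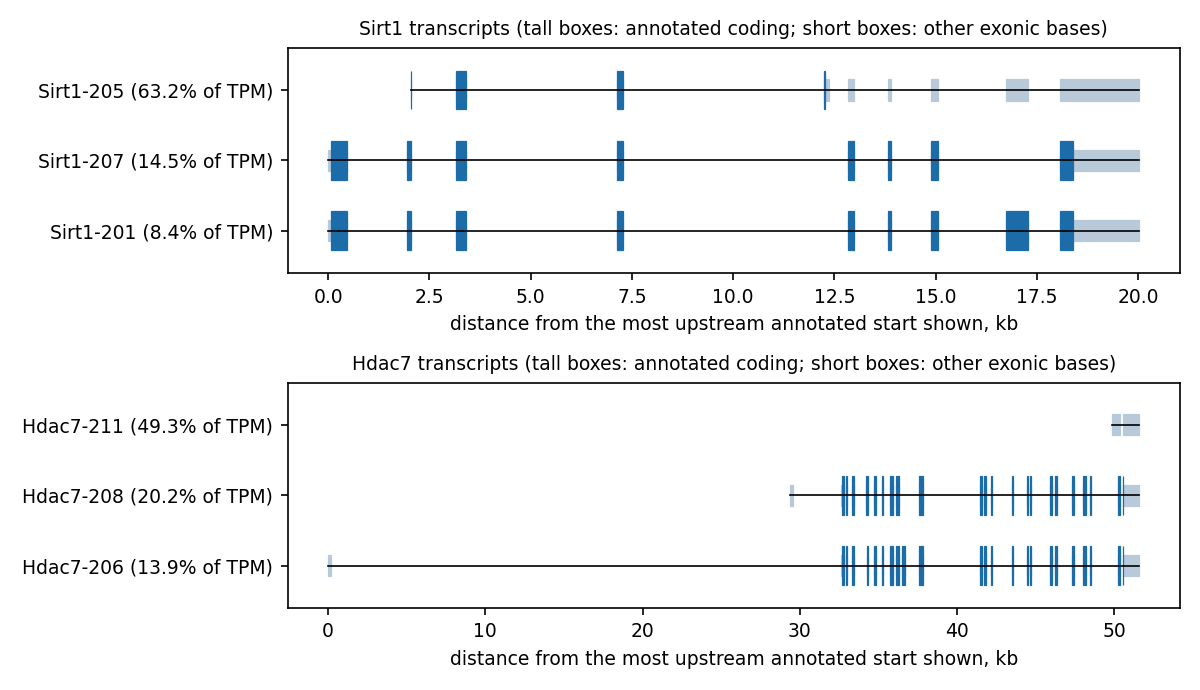
Exons of the leading transcripts of Sirt1 (top) and Hdac7 (bottom) by distance from the most upstream annotated start shown, in kb, with tall dark boxes for annotated coding bases and short pale boxes for other exonic bases; the label gives the mean share of the gene's TPM. Sirt1-205, at 63.2%, has coding boxes only up to its additional exon, and Hdac7-211, at 49.3%, covers only the last exons of the gene.

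Hdac7 was led by the retained-intron transcript Hdac7-211, which took 48.9%, 49.9% and 49.0% of its TPM. The share was thus nearly the same in all 3 libraries. Hdac7-211 has 2 exons and begins with 380 bases (chr15:97794066-97794445) that are intronic in the coding transcripts. It held 224, 311 and 204 counts, or 29.7% of Hdac7 counts, since it is shorter than the coding transcripts. The coding transcript Hdac7-208 held 244, 244 and 231 counts, or 29.5%, which was more than Hdac7-211 in libraries 1 and 3. Hdac7-208 and Hdac7-206, which encode 851 and 892 codons from different first exons, took 20.2% and 13.9% of TPM on average. The posterior SDs were 13.2 to 19.3 counts for Hdac7-211, 38.5 to 46.8 for Hdac7-208 and 35.4 to 68.2 for Hdac7-206. The order of Hdac7-211 and Hdac7-208 by counts was thus not resolved. Where the intron meets the shared exon, the transcripts read as follows, with the intronic side in capitals (chr15:97794066-97794080) and the shared side (chr15:97794051-97794065) last. Both are shown because this border is what sets the leading transcript apart.
Hdac7-211: AGCTTCTCGTCCTAGggaaatactggggct
Hdac7-208: tggtcagggtgcacaggaaatactggggct

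Hdac4 was led by the coding transcript Hdac4-202, with 63.3%, 60.9% and 56.5% of TPM. The short retained-intron transcript Hdac4-210, of 589 bases, took 21.7%, 30.3% and 32.8% of TPM but only 2.96% of counts, with 38.3, 61.0 and 62.6 counts. A share of TPM weighs a short transcript more than a share of counts does. On coding transcripts alone the level of Hdac4 was 23.8 ± 1.78 TPM and that of Hdac7 16.4 ± 1.38 TPM, below the 32.9 ± 5.10 TPM of Hdac3. In Hdac4-210 the 178 intronic bases (chr1:91934687-91934864) end as shown in capitals.
Hdac4-210: GTGTCTCTCTTATAGcttgagcctctgcca
Hdac4-202: ctgctgggaaacgagcttgagcctctgcca

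Hdac2 was split between the coding transcript Hdac2-201, with 56.7%, 52.8% and 48.4% of TPM, and the processed transcript Hdac2-204, which has no annotated coding sequence, with 41.0%, 44.5% and 43.7%. By counts Hdac2-204 took 24.0%. It has no base of its own and 1 junction of its own, which removes 384 exonic bases of Hdac2-201 (between chr10:36997045 and chr10:36998474). It was assigned 28.4, 41.9 and 31.0 counts with posterior SDs of 6.96, 8.93 and 8.05. Reads over that junction would carry the sequence below, with capitals from the far side of the junction. Since the bases on both sides begin alike, the 2 transcripts differ only after the first few capitals.
Hdac2-204: cattgctgatgctcgGTGAAGGAGGTCGTA
Hdac2-201: cattgctgatgctcggtggaggaggctaca

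Hdac9 held few counts, and its transcripts varied most between libraries. Hdac9-201, which took 25.1%, 91.7% and 40.3% of TPM on 6.58, 12.9 and 22.8 counts, encodes 588 codons and ends before the catalytic domain, the short form of the protein known as MITR. Hdac9-205 encodes 1064 codons and took 24.1%, 8.35% and 2.51% on 11.4, 2.12 and 2.57 counts. The long form had more counts than the short form in library 1 and fewer in libraries 2 and 3. Hdac9-202 (114 codons) and the retained-intron transcript Hdac9-209 took 21.2% and 11.3% on average and were at 0 in library 2. In library 1 Hdac9-209 took the largest share, 27.3% on 6.00 counts. In Hdac9-201 the shared exon runs on into what is intron for Hdac9-205, with 48 more coding bases (chr12:34373830-34373877). Capitals mark the start of that stretch.
Hdac9-201: gcttttatgcaacagGTAATAGGCAAAGAT
Hdac9-205: gcttttatgcaacagcctcccttgctggag

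The remaining genes had their own leading transcripts. Hdac1-201, the single coding transcript of Hdac1 with 482 codons, took 88.5%, 92.5% and 87.9% of its TPM, and Hdac3-201 (428 codons) took 74.3%, 83.8% and 85.3%. Hdac6-202 took 83.8%, 100.0% and 100.0%, with posterior SDs of 34.1 to 46.8 counts. By the authors' posterior mean it took 52.3%, 46.2% and 43.1%, and the coding share of Hdac6 was 77.4% in place of 100.0%. Hdac8-201 (377 codons) took 60.5% on average and most in library 1, 70.9%. The decay-annotated Hdac8-205, which skips an exon of 131 bases (chrX:102499822-102499952), took 16.9%, 19.6% and 18.9%, but on 9.54, 14.9 and 10.7 counts with posterior SDs of 6.61, 7.64 and 6.04. The retained-intron transcript Hdac8-204 took 8.91%, 20.5% and 21.9%, also on few counts (4.29, 13.3 and 10.5, with posterior SDs of 3.00, 3.78 and 2.90).

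Hdac5 had no dominant transcript. The retained-intron transcripts Hdac5-211 and Hdac5-218 took 24.3% and 12.1% of TPM on average, and Hdac5-212 took 15.3% and 14.7% in libraries 1 and 2. The coding transcript with the largest share, Hdac5-214, took 14.3% and is annotated with only 142 codons. By counts the long coding transcripts held the most, Hdac5-204 (1115 codons) with 26.1%, 59.6% and 0% in libraries 1, 2 and 3 and Hdac5-202 (1102 codons) with 45.7% in library 3 and 0% in the others. Both are under the 10% limit for naming and were picked after their values were seen. By TPM, Hdac5-204 took 20.4% in library 2 and Hdac5-202 16.1% in library 3, each above Hdac5-214 there. Neither long transcript has a base or a junction of its own among the annotated Hdac5 transcripts. By the authors' posterior mean, Hdac5-204 took 2.28%, 4.98% and 2.61% of TPM and Hdac5-202 1.98%, 3.05% and 3.03%. The split between Hdac5-204 and Hdac5-202 was thus not resolved. Hdac5-211, Hdac5-214, Hdac5-218 and Hdac5-212 each had under 16 counts in any library, and Hdac5-218 and Hdac5-212 were each at 0 in 1 library. Their shares rest on too few counts to be ordered.

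Counting coding transcripts alone changed the lower end of the order. Hdac1 stayed first at 177 ± 15.3 TPM. Hdac8 at 6.30 ± 0.640, Hdac2 at 5.49 ± 0.188 and Hdac6 at 5.33 ± 0.696 then lay close together. Hdac5 at 1.87 ± 0.438 and Sirt1 at 1.35 ± 0.314 TPM lay below Hdac6 in every library. This count was chosen after the data had been seen.

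Promoter sequences from RefSeq (GRCm38.p6, 250 bases before to 50 after each start) covered 8 of the 10 genes in 12 entries, without Hdac1 and Hdac3. The letters GGGCGG, the core of the box bound by SP1, were found on either strand in 6 of the 12 entries, belonging to Hdac2, Hdac4, Hdac5, Hdac6, Hdac7 and Sirt1. They occur in 35.7% of all 32851 entries. TATAAA on either strand was found in 2 entries, of Hdac8 and Hdac9, against 13.6% of all. Neither motif can overlap the other. The GC content ranged from 44.0% in an entry of Hdac9, the gene with the lowest level, to 79.0% in Sirt1, with a median of 61.3% against 52.7% for all entries.

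The genes known to work with these enzymes were also examined, from lists chosen with earlier results in view. Of 92 partner genes, 86 were at 1 TPM or more in all 3 libraries. Of 89 tested, 48 differed between libraries, 53.9% against 45.7% of all genes. Among the other enzymes of both families, 7 of 8 were detected and 5 passed. Sirt2, a mainly cytoplasmic sirtuin, was the highest at 106 ± 5.54 TPM, followed by the nucleolar Sirt7 at 44.6 ± 4.78 and the chromatin-bound Sirt6 at 20.5 ± 1.61. All 3 exceeded Sirt1 in every library. The mitochondrial sirtuins Sirt3, Sirt4 and Sirt5 were at 7.73 ± 1.14, 10.6 ± 2.23 and 12.8 ± 2.92 TPM. Hdac10, a polyamine deacetylase of class IIb, was at 9.89 ± 2.75 TPM and Hdac11, the class IV enzyme, at 0.967 ± 0.442 on 5, 11 and 19 counts.

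Beside these lists stand the background shares: 45.7% of all tested genes passed, and of those 30.7%, 33.9% and 35.4% were highest in libraries 1, 2 and 3. In the SIN3 complex list 13 of 14 genes were detected and 6 passed, 3 highest in library 1, 1 in library 2 and 2 in library 3. In the NuRD list all 12 were detected and 7 passed, with 4, 1 and 2 highest in libraries 1, 2 and 3. Both lists contain the histone-binding proteins Rbbp4, at 392 ± 14.3 TPM, and Rbbp7, at 160.1 ± 7.02, the highest of each list. Rbbp4 stood at 407, 391 and 379 TPM and Rbbp7 at 167, 159.7 and 153. Both were lowest in library 3 (homogeneity test, adjusted p = 3.99e-06 and 6.69e-06). Hdac1 was also lowest there, but the share of all genes that were lowest in library 3 was not determined.

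In the NCoR/SMRT list, the complex of HDAC3, all 6 genes were detected and 2 passed, 1 highest in library 1 and 1 in library 3. The scaffold Ncor1 was at 139.7, 131 and 140.4 TPM and Coro2a at 118, 111 and 144 TPM. Coro2a was highest in library 3 and Hdac3 lowest there. In the CoREST and MiDAC list 8 of the 9 genes found in the annotation were detected, and 5 of 8 tested passed, all 5 highest in library 3, where 35.4% of all genes that passed were highest. Its leading genes were Phf21a, a reader of unmethylated histone H3, at 35.5 ± 3.49 TPM and Hmg20b at 15.4 ± 1.36.

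For class IIa, the list of MEF2 factors, 14-3-3 proteins and kinases had 19 of 22 genes detected and 14 of 20 tested passing, 7 highest in library 1, 3 in library 2 and 4 in library 3, against 45.7% passing among all genes and 30.7%, 33.9% and 35.4% of those highest in libraries 1, 2 and 3. Its highest genes encode 14-3-3 proteins, Ywhaz at 866 ± 60.6 TPM and Ywhae at 492 ± 47.7, and both were lowest in library 3. Among the opposing histone acetyltransferases all 12 were detected and 6 passed, 1 highest in library 1, 1 in library 2 and 4 in library 3. Hat1, which acetylates new histone H4, led at 79.8 ± 4.05 TPM, followed by Crebbp (CBP) at 46.0 ± 5.13. In the list of SIRT1 regulators and NAD supply all 11 were detected and 5 passed, 3 highest in library 1, 1 in library 2 and 1 in library 3. Cd38, an enzyme that consumes NAD, led at 59.7 ± 3.58 TPM, and Parp1, another consumer, was at 40.4 ± 6.63. Each of these 2 genes stood above Sirt1 in every library.

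Some members overlap other genes on the opposite strand, and no source used here gives the strand setting. The end of Hdac7 shares 29 bases with Slc48a1, which had 344, 444 and 357 counts. The lincRNA Gm26720 covers 3576 bases that are exonic in at least 1 annotated Hdac4 transcript, and had 0, 0 and 8 counts. A length of 3576 bases is also that of the retained-intron transcript Hdac4-209, which took 2.27% of Hdac4 TPM on average. Antisense Gm16145 at Sirt1 had 0 counts in all 3 libraries. Reads in these stretches cannot be told apart without strand.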

How the data were processed

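Polyadenylated RNA from 1 biological sample of mouse Tregs was sequenced in 3 technical libraries. Estimated counts per gene and transcript, TPM values scaled by effective length, transcript percent of the gene's TPM, posterior SDs and credibility bounds (a signal of assignment uncertainty) were deposited in the column layout of RSEM, per the file headers, on mm10 and GENCODE M21, per the labels. Whole-number counts on GENCODE M4 were deposited as separate tables. Aligner, versions and strand setting: not given in the sources used here.

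Members, gene lists and tests were chosen with earlier results of these data known. Estimated counts were rounded. Non-gene entries, 0.235% to 0.286% of counts, and 0 unassigned columns were left out. The quasi-likelihood test of edgeR needs groups and was not possible. Instead, the 13970 genes averaging at least 10 counts were tested for homogeneity (Poisson chi-square, TMM sizes from edgeR 4.0.16 in R 4.3.3, factors 0.994, 0.976 and 1.03, Benjamini-Hochberg threshold 0.05; scipy 1.17.1). The script was tested on simulated data. Levels were compared as log2(TPM + 0.1). Alternatives were DESeq2 1.42.0 size factors, total counts, no filter, added posterior SD, other pseudocounts, posterior mean TPM, whole-number counts and leaving out each library. All members were named, with transcripts at 10% or more of their gene's TPM on average and the leading coding transcript. Of other lists, up to 2 genes with the highest mean TPM were named (all 8 in the list of other HDACs and sirtuins), and genes outside this rule only where a result turned on them. Sequences came from the GENCODE M21 transcripts.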

Additional observations from a re-analysis of the deposited data

How the results depend on the processing

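The share of the summed level taken by Hdac1, 56.6%, was 54.8% with posterior mean TPM, 45.6% as CPM, without length and 14.4% in the whole-number counts, and 56.1% to 57.4% when a library was left out. With coding transcripts alone it was 65.3%, and with Gm10093 added to Hdac1 61.5%, both chosen after seeing the data. The count of members that differed between libraries was 5, beside 45.7% of all tested genes. It stayed 5 with DESeq2 size factors (47.1% of all tested genes), total counts (46.1%), no filter (21.1%) or added posterior SD (40.5%). It fell to 1 in the whole-number counts (21.6%). Without library 1, 2 or 3 it was 4, 2 and 2, beside 33.8%, 30.7% and 21.3% of all tested genes. Neighbours that kept the main order in every library numbered 5. They numbered 3 in the whole-number counts, 8 with coding transcripts alone and 6 when a library was left out. Pairs with the reverse order in every library are not in these counts. Among them were Sirt1 minus Hdac6 (-1.92) on coding transcripts alone, and Hdac1 minus Hdac3, Hdac4 minus Hdac7 and Sirt1 minus Hdac6 in the whole-number counts. The log2 difference Hdac1 minus Hdac3 turned to -0.53 in the whole-number counts. As CPM, without length, Hdac3 minus Hdac4 turned from 0.10 to -1.36 and Sirt1 minus Hdac6 from 0.14 to -0.25, Hdac4 minus Hdac7 was 1.15 and Hdac5 minus Sirt1 -1.24, each with 1 sign in all libraries, so that Hdac4 ranked 2 and Hdac3 4 of the 10. With posterior mean TPM, Hdac2 minus Hdac5 fell from 0.71 to 0.16, and Hdac5 minus Sirt1 rose to 0.56 with 1 sign in all libraries. Sirt1 minus Hdac6 was -0.21 with posterior mean TPM and -1.27 in the whole-number counts, where Hdac4 minus Hdac7 was -0.29. Hdac8 minus Hdac2 was 0.02 as CPM and 0.10 in the whole-number counts, and in both Hdac2 was higher in library 3. By counts in place of TPM the coding share of Hdac5 was 56.1%, against 31.7%, and 8 genes, against 7, were led by a coding transcript. The cause of these changes was not tested. Depth limits Hdac9, at 15 to 36 counts, and the transcripts of Hdac5. No paired analysis was possible because the labels give 1 group.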
